A study of Homo sapiens with 6 samples.

Results

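The genes described here encode the machinery that makes ribosomes: RNA polymerase I with its initiation factors, and the nucleolar proteins that modify, cut and assemble ribosomal RNA. They are 50 named genes, all found by symbol among the 58735 genes of the deposited count table, and all 50 passed the filter on low counts that left 16655 genes for testing. They were read in T3M4, an established human pancreatic ductal adenocarcinoma cell line, from 3 libraries labelled as a MUC16 knockout and 3 labelled WT, whose genotype label says that MUC16 is expressed. All cells were untreated and grown in serum-containing medium to near confluence. How the knockout was made, and whether it is a clone or a pool, is not given in the sources used here. No label says that replicate libraries are from different cultures, and the p-values cover no more than how these samples differ, a spread that may be technical. Library totals ran from 19088927 to 28612621 gene counts in the libraries labelled knockout and from 22963814 to 27647455 in those labelled WT. MUC16 itself, a membrane-tethered mucin, had 292, 504 and 323 counts in the libraries labelled knockout, against 98, 144 and 90 counts in those labelled WT. Its log2 fold change was 1.79 ± 0.17 (SE, edgeR adjusted p = 4.79e-09), so MUC16 RNA goes against the labels. Genes are called higher or lower here by what the knockout label's libraries show against the WT label's. The epithelial markers EPCAM, CDH1, KRT8, KRT18 and KRT19 summed to 4730 to 4953 counts scaled to library size (CPM) in the libraries labelled knockout and 2887 to 2943 CPM in those labelled WT, with all 5 called higher. Fibroblast, immune and endothelial marker lists of 6, 5 and 4 genes summed to at most 46.7, 4.50 and 22.0 CPM in any library, with none at 0 in all libraries. Only 2, 1 and 3 of these genes passed the filter and were tested, with 1, 0 and 3 called higher and 0 called lower. The part of these markers in the results was not tested.

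Ribosome production starts in the nucleolus, where RNA polymerase I (Pol I) transcribes a long precursor of the ribosomal RNAs. Small nucleolar ribonucleoproteins (snoRNPs) modify this precursor, the small subunit processome and large subunit assembly factors fold and cut it, and ribosomal proteins are added on the way to the cytoplasm. In growing tumour cells these genes are known as a co-regulated set, and the transcription factor MYC, which binds the E-box sequence CACGTG, is a known activator of many of them.

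Nearly the whole set was lower in the libraries labelled knockout. Of the 50 genes, 48 were called lower and 0 higher at an adjusted p under 0.05, where 25.9% of all genes tested were called lower, 26.7% higher and 52.6% in either direction (edgeR quasi-likelihood test, Benjamini-Hochberg adjustment over all 16655 genes). The median log2 fold change of the 50 genes was -0.48, against 0.00348 over all genes tested. The changes were moderate and alike in size: among the 48 called genes the difference of mean CPM ran from -52.1% to -13.3% with a median of -29.4%, and 39 of them lay between 20% and 45% lower. TCOF1 alone passed both the threshold and a 2-fold fall, where 1.36% of all genes tested did. The values of the groups did not overlap for 48 of the 50 genes, each time with the libraries labelled knockout lower. This was so for 29.0% of all genes tested, and the groups did not overlap in either direction for 59.0%. NOP10 and PPAN were the genes whose groups overlapped. By the authors' deposited table, calls were alike: 46 of the 50 genes were called lower and 0 higher, and NOP2 and PPAN were called here and not there.

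**Figure D1:**
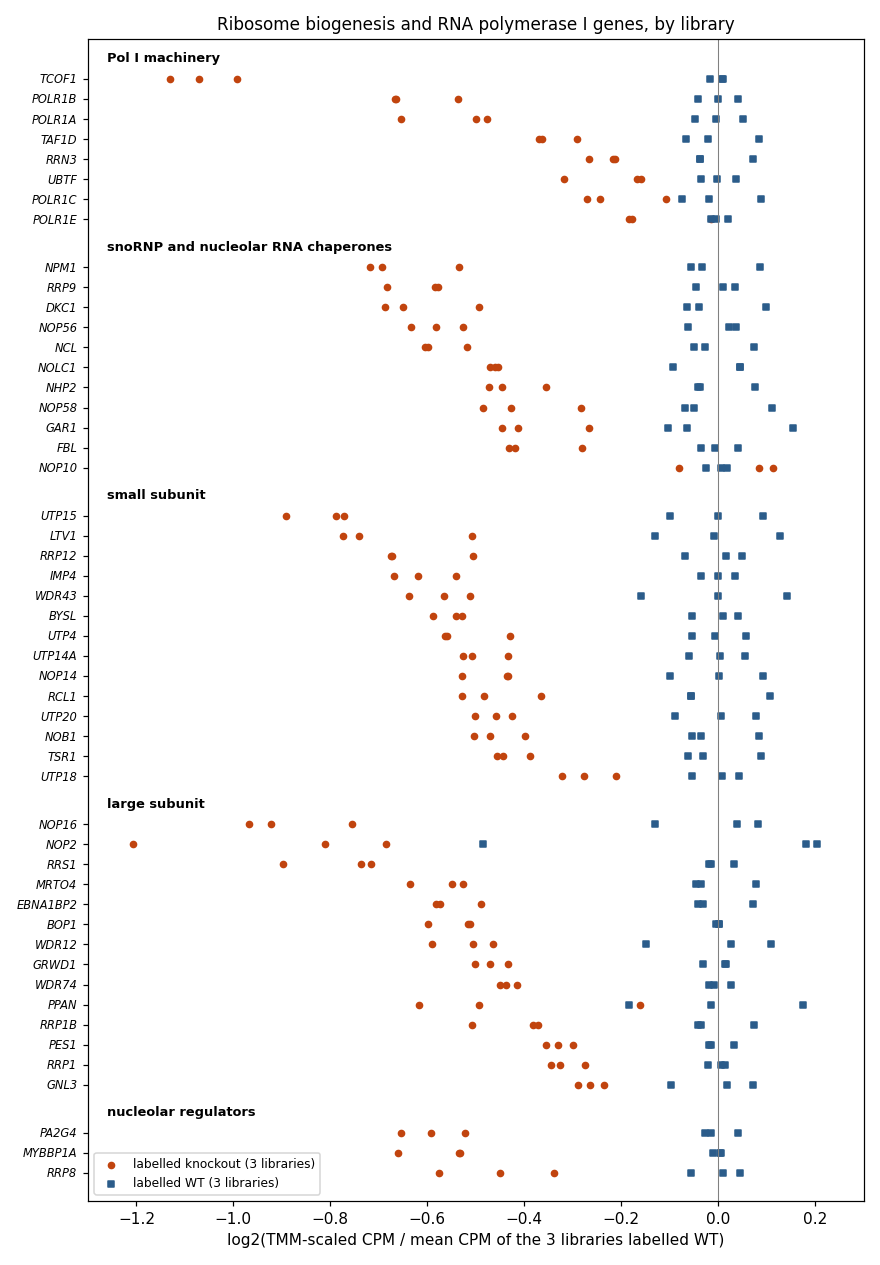
Each line is a gene and each point a library, placed by the log2 ratio of its TMM-scaled CPM to the mean CPM of the 3 libraries labelled WT; circles are libraries labelled knockout and squares libraries labelled WT. The circles lie to the left of the squares for every gene except NOP10 and PPAN, where they overlap.

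The libraries of each group stood close together. Summed over the 50 genes, the level was 5374, 5296 and 5568 CPM in the libraries labelled knockout, against 8162, 7643 and 7783 CPM in those labelled WT. As a share of all gene counts, the genes took 0.556% ± 0.0126 in the libraries labelled knockout and 0.764% ± 0.0255 in those labelled WT (SD, n = 3 each). NPM1 and NCL made up 26.4% of the summed level in the libraries labelled knockout and 27.8% in those labelled WT; without this pair the sums were 3985 ± 66.5 CPM in the libraries labelled knockout and 5680 ± 160.1 CPM in those labelled WT (SD, n = 3 each). Within its group, replicate 1 of the libraries labelled WT had the highest level for 39 of the 50 genes, and replicate 3 of those labelled knockout for 31. Every one of the 5 role groups described below was lower as a sum. The ratio of the group means, libraries labelled knockout over WT, was 0.663 for the Pol I machinery. It was 0.681 for snoRNP proteins and nucleolar RNA chaperones, 0.706 for small subunit factors, 0.717 for large subunit factors and 0.670 for nucleolar regulators. TCOF1 alone had a mean of 207 of the 696 CPM of the Pol I sum in the libraries labelled knockout. In those labelled WT it had 433 of 1049 CPM. Gene by gene the Pol I machinery fell least, with a median log2 fold change of -0.29, against -0.46 to -0.58 in the other role groups. Fewer cells of a type and less RNA per cell cannot be told apart in such bulk samples.

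**Figure D2:**
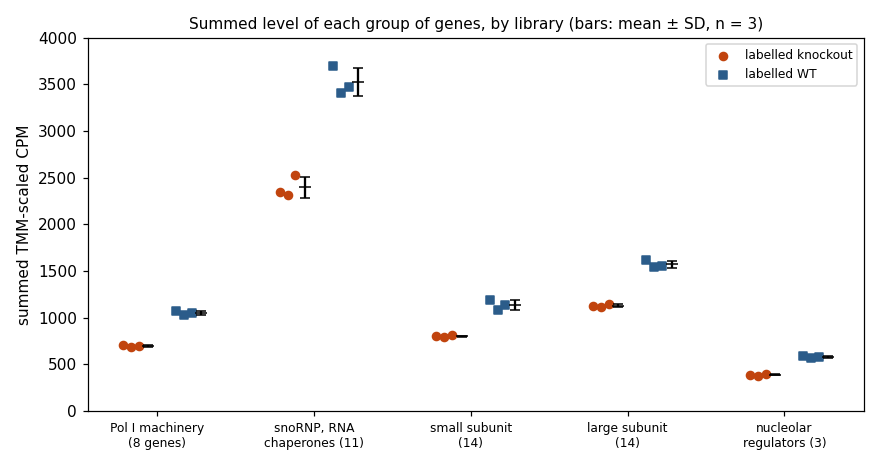
Summed TMM-scaled CPM of each role group in each library; points are libraries and bars the mean and SD of 3 libraries, with those labelled knockout to the left. In each group all 3 libraries labelled knockout lie below all 3 labelled WT, for example 689 to 706 CPM against 1034 to 1068 CPM for the Pol I machinery.

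Level of expression moves with the direction of change in these libraries, and most of the 50 genes are well expressed. Among all 3162 genes tested with a mean of 64 to 256 CPM, 48.5% were called lower with a median log2 fold change of -0.10. Of the 27 ribosome biogenesis genes in that range 26 were called lower, with a median of -0.47. Between 16 and 64 CPM, 14 of 15 were called lower (median -0.46), where 32.8% of 4705 genes were (median -0.04). Above 256 CPM, 5 of 5 were called lower (median -0.59), where 56.4% of 707 genes were (median -0.14). In each of these ranges the median of the set lay below that of all genes, as the plot of change by level shows.

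**Figure D3:**
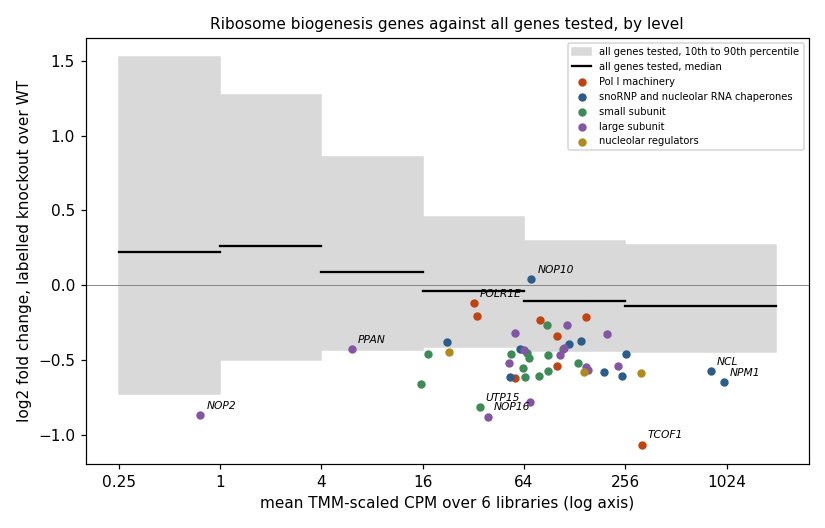
Log2 fold change (libraries labelled knockout over WT) against mean TMM-scaled CPM on a log axis; grey boxes span the 10th to 90th percentile of all genes tested in 6 ranges of level and black lines their medians, while points are the 50 genes coloured by role. From 16 CPM up, the medians of the set (-0.46, -0.47 and -0.59) lie below the 10th percentiles of all genes (-0.41, -0.44 and -0.45), with TCOF1 lowest at -1.06 and NOP10 highest at 0.04.

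RefSeq promoter windows (build GRCh38.p14, 250 bases before to 50 after a transcription start) were matched by symbol for 42 of the 50 genes, and 20 of these 42 (47.6%) held CACGTG, which reads the same on both strands. The hexamer was found in 12.4% of the 10598 protein-coding genes tested that have a window, in 14.5% of those called lower and in 10.8% of those called higher. In 19 of the 20 genes a copy began within 50 bases of the start, as did 41.6% of the 1313 protein-coding genes tested that hold it. The median log2 fold change was -0.50 for the 20 genes with CACGTG and -0.46 for the 22 without it. The windows below are those of the gene with the lowest log2 fold change among those holding CACGTG in 4 role groups, and of NOP10, which did not pass the test. None of the Pol I genes with a window held it. NOP2 and PPAN, whose counts are uncertain, were passed over. They are written 5′ to 3′ on the strand of the gene with CACGTG in capitals, at chr3:51941855-51942154 (minus strand) for RRP9, chr6:143843088-143843387 (plus) for LTV1, chr1:19251555-19251854 (plus) for MRTO4, chr17:4555335-4555634 (minus) for MYBBP1A and chr15:34343087-34343386 (minus) for NOP10.
RRP9: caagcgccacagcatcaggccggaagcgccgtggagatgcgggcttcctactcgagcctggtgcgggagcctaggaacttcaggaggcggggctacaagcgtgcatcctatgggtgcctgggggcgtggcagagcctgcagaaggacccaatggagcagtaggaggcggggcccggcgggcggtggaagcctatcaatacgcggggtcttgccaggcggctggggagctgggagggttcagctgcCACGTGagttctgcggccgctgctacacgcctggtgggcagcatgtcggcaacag
LTV1: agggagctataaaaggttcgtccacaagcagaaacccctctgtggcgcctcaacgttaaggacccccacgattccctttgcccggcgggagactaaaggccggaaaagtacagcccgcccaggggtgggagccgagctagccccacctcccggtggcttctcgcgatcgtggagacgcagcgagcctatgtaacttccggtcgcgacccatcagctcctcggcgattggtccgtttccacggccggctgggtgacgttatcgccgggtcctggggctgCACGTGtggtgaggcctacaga
MRTO4: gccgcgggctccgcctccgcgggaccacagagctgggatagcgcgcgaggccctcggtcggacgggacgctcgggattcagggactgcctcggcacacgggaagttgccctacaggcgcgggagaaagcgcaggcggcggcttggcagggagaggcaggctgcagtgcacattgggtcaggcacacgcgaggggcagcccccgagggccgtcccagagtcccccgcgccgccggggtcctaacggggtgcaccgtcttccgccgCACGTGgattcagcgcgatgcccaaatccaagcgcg
MYBBP1A: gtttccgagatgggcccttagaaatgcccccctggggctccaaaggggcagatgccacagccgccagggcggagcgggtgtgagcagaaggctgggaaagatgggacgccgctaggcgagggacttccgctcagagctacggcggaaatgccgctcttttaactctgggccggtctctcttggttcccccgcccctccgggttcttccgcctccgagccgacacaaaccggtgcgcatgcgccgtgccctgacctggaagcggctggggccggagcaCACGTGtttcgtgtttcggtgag
NOP10: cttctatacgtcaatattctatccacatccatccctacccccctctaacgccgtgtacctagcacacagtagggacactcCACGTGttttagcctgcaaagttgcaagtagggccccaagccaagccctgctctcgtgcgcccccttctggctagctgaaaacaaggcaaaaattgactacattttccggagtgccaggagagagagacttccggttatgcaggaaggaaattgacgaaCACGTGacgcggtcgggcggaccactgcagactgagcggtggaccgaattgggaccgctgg
The first 4 windows hold a single copy close to the start, and that of NOP10 holds 2. A match of letters describes the sequence and shows no binding.

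The Pol I machinery had the widest range of change. Of its 8 genes 7 were called lower, and the median log2 fold change was -0.29. TCOF1 encodes treacle, a nucleolar protein that works with Pol I at the ribosomal RNA genes. It had 218, 206 and 198 CPM in the libraries labelled knockout, against 436, 428 and 435 CPM in those labelled WT. Its groups lay far apart, with a log2 fold change of -1.06 ± 0.04 (SE, edgeR adjusted p = 1.8e-15). The catalytic core subunits moved together. POLR1A, the largest subunit, had 84.6, 86.0 and 76.0 CPM in the libraries labelled knockout and 116, 119 and 124 CPM in those labelled WT (log2 fold change -0.54 ± 0.05, edgeR adjusted p = 4.47e-09). POLR1B, the second-largest subunit, had 43.3, 47.4 and 43.4 CPM in the libraries labelled knockout, against 70.7, 66.8 and 68.8 CPM in those labelled WT (-0.62 ± 0.05, edgeR adjusted p = 1.76e-09). In both, no library of either group crossed into the range of the other.

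UBTF, RRN3 and TAF1D, factors of the set that help to bring Pol I to its promoter, were also called lower. UBTF, which binds and opens the ribosomal DNA, had 142, 128 and 143 CPM in the libraries labelled knockout and 164, 159 and 156 CPM in those labelled WT (log2 fold change -0.21 ± 0.05, edgeR adjusted p = 0.00048). RRN3, which links the polymerase to the promoter complex, had 71.4, 73.8 and 74.1 CPM in the libraries labelled knockout and 90.2, 83.7 and 83.6 CPM in those labelled WT (-0.23 ± 0.05, edgeR adjusted p = 0.000322). RRN3 has 2 pseudogenes by symbol, which held 1243 counts over all libraries, 10.4% of the counts of RRN3, so reads may be shared. TAF1D, a subunit of the promoter selectivity factor SL1, fell by 0.34 on the log2 scale. Among the smaller subunits, POLR1C, shared by Pol I and Pol III, had 30.0, 30.6 and 33.6 CPM in the libraries labelled knockout, against 38.5, 35.8 and 34.4 CPM in those labelled WT (-0.20 ± 0.07, edgeR adjusted p = 0.0144), a call lost without knockout replicate 1 (adjusted p = 0.0628), knockout replicate 2 (0.0543) or WT replicate 1 (0.0741). POLR1E, a Pol I-specific subunit, did not pass: it had 29.7, 29.6 and 33.2 CPM in the libraries labelled knockout and 34.0, 33.2 and 33.5 CPM in those labelled WT (-0.12 ± 0.07, edgeR adjusted p = 0.135). Knockout replicate 3 sits just under the WT range, and without it POLR1E was called lower (-0.18, adjusted p = 0.0366). Annotated ribosomal RNA genes held only 97, 146 and 131 counts in the libraries labelled knockout and 94, 106 and 114 in those labelled WT, so the product of Pol I was not measured here.

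Proteins of the snoRNPs and the abundant nucleolar RNA chaperones were lower in 10 of 11 cases, with a median log2 fold change of -0.46. NPM1, nucleophosmin, a chaperone of the granular nucleolus, had 742, 729 and 828 CPM in the libraries labelled knockout, against 1273, 1153 and 1172 CPM in those labelled WT (log2 fold change -0.65 ± 0.05, edgeR adjusted p = 7.79e-11). NPM1 has 45 pseudogenes by symbol, which together held counts equal to 1.89% of its own. NCL, nucleolin, which binds precursor ribosomal RNA, had 650, 647 and 686 CPM in the libraries labelled knockout and 1035, 949 and 965 CPM in those labelled WT (-0.57 ± 0.04, edgeR adjusted p = 6.01e-11). These were the most abundant genes of the set by counts, and in both the groups were well separated. By level per length NPM1 again came first, at 198 FPKM (fragments scaled to gene length and library size, the authors' deposited values) in the libraries labelled knockout and 312 FPKM in those labelled WT. The median over the 50 genes was 17.6 FPKM in the libraries labelled knockout and 25.1 FPKM in those labelled WT.

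The box C/D snoRNPs, which guide 2′-O-methylation, share the core proteins NOP56, NOP58 and fibrillarin (FBL), the methyltransferase. FBL had 117, 116 and 129 CPM in the libraries labelled knockout, against 156, 161 and 153 CPM in those labelled WT (log2 fold change -0.37 ± 0.05, edgeR adjusted p = 4.32e-07). NOP56 (-0.58 ± 0.04) and NOP58 (-0.39 ± 0.06) were also called lower. RRP9, a protein particular to the U3 snoRNP, which takes part in the first cuts of the precursor, had 42.7, 42.9 and 39.9 CPM in the libraries labelled knockout and 65.5, 64.4 and 62.0 CPM in those labelled WT (-0.62 ± 0.05, edgeR adjusted p = 2e-09). No value of these 4 genes overlapped between groups, where 59.0% of all genes tested did not overlap in either direction and 29.0% with the libraries labelled knockout lower.

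The box H/ACA snoRNPs, which guide pseudouridylation, did not move as a block. Dyskerin (DKC1), the pseudouridine synthase, had 183, 188 and 209 CPM in the libraries labelled knockout, against 315, 282 and 286 CPM in those labelled WT (log2 fold change -0.61 ± 0.05, edgeR adjusted p = 7.55e-10). Its partners NHP2 (-0.42 ± 0.05) and GAR1 (-0.38 ± 0.08) were called lower. NOP10, the smallest core protein, did not pass, with 73.8, 65.8 and 75.3 CPM in the libraries labelled knockout and 68.5, 69.9 and 70.5 CPM in those labelled WT (0.04 ± 0.05, edgeR adjusted p = 0.547). The ratio of NOP10 to DKC1 counts, which does not depend on scaling, was 0.404, 0.351 and 0.360 in the libraries labelled knockout, against 0.217, 0.248 and 0.246 in those labelled WT. The ratio was higher in all 3 libraries labelled knockout, and the exact two-sided permutation p was 0.1, the smallest that 3 against 3 allows; this pair was chosen after its values were seen. NOLC1, a carrier of snoRNPs in the nucleolus, was called lower (-0.46 ± 0.04).

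**Figure D4:**
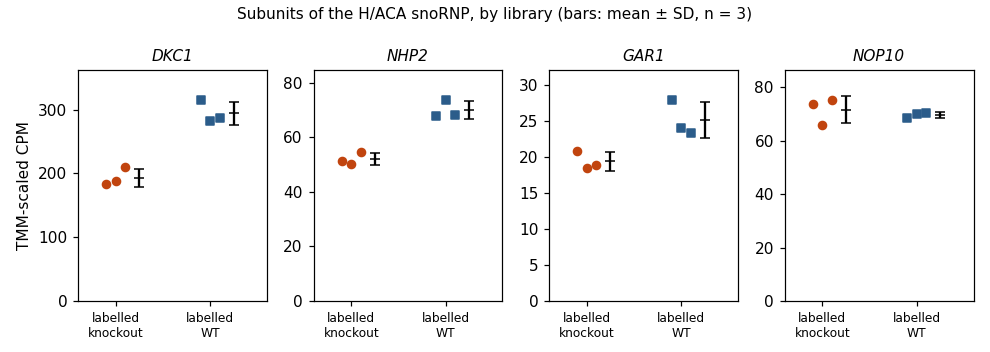
TMM-scaled CPM of the 4 core proteins of the H/ACA snoRNP in each library, with the mean and SD of 3 libraries beside the points; libraries labelled knockout are on the left of each panel. DKC1, NHP2 and GAR1 are lower in every library labelled knockout, while NOP10 spans 65.8 to 75.3 CPM there and 68.5 to 70.5 CPM in the libraries labelled WT.

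All 14 small subunit factors were called lower, with log2 fold changes from -0.82 to -0.27 and a median of -0.50. UTP15, of the t-UTP subcomplex that joins the precursor first, had 25.8, 24.0 and 26.1 CPM in the libraries labelled knockout, against 47.5, 41.6 and 44.5 CPM in those labelled WT (log2 fold change -0.82 ± 0.07, edgeR adjusted p = 5.65e-10). UTP4 (-0.52 ± 0.05) and WDR43 (-0.57 ± 0.06), of the same subcomplex, were lower as well. LTV1, a late assembly factor that leaves the pre-40S particle in the cytoplasm, had 11.4, 11.2 and 13.4 CPM in the libraries labelled knockout and 20.8, 17.4 and 19.0 CPM in those labelled WT (-0.66 ± 0.10, edgeR adjusted p = 3.27e-06). LTV1 shares 34.8% of its exon bases on the same strand with AL049844.3 and AL049844.1, both listed at 0 counts, and the part of this in its change was not tested. RRP12, which takes part in export of the subunits, had 49.1, 55.2 and 49.1 CPM in the libraries labelled knockout and 74.8, 79.2 and 81.1 CPM in those labelled WT (-0.61 ± 0.06, edgeR adjusted p = 2.86e-09). Early processome proteins such as IMP4 (-0.61), a U3 snoRNP protein, and UTP20 (-0.46), and late factors such as the endonuclease NOB1 (-0.46), the GTPase-like TSR1 (-0.43) and BYSL (-0.55), fell within the same range. UTP18 fell least (-0.27 ± 0.05). In all 14 genes the groups did not overlap, with the libraries labelled knockout lower. This was so for 29.0% of all genes tested, and for 59.0% in either direction.

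The 14 large subunit factors were also all called lower, with a median log2 fold change of -0.49. NOP16, a nucleolar protein of early 60S particles, had 26.7, 25.9 and 30.0 CPM in the libraries labelled knockout, against 52.0, 53.7 and 46.3 CPM in those labelled WT (log2 fold change -0.88 ± 0.07, edgeR adjusted p = 3.14e-10). RRS1, which helps to place the 5S ribonucleoprotein, had 53.3, 47.0 and 52.6 CPM in the libraries labelled knockout and 86.7, 86.4 and 89.6 CPM in those labelled WT (-0.78 ± 0.05, edgeR adjusted p = 2.36e-11). The PeBoW complex, needed for processing of the precursor towards 28S ribosomal RNA, is made of PES1, BOP1 and WDR12. BOP1 had 180, 190 and 191 CPM in the libraries labelled knockout and 272, 273 and 273 CPM in those labelled WT (-0.54 ± 0.04). WDR12 (-0.52 ± 0.06) and PES1 (-0.33 ± 0.04) were lower too. GNL3, nucleostemin, a GTPase of the nucleolus, fell least (-0.26 ± 0.05). The paralogues RRP1 (-0.32 ± 0.05) and RRP1B (-0.42 ± 0.05) both fell.

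A pair of large subunit genes rested on few reads. NOP2, a methyltransferase of 28S ribosomal RNA, had 11, 11 and 18 counts in the libraries labelled knockout, against 30, 19 and 25 counts in those labelled WT (log2 fold change -0.87 ± 0.36, edgeR adjusted p = 0.0478). In GENCODE release 29 another protein-coding gene on the same strand, AC006064.6, covers 54.4% of the exon bases of NOP2, and it is listed at 0 counts. PPAN, a factor of early 60S assembly, had 121, 116 and 144 counts in the libraries labelled knockout and 206, 164 and 153 counts in those labelled WT (-0.42 ± 0.14, edgeR adjusted p = 0.0156); the read-through gene PPAN-P2RY11 covers 56.0% of its exon bases and is listed with 1 count. For both, the counts may be only part of the transcript's reads, and their part in the change was not tested. NOP2 lost its call in 11 of the alternatives and PPAN in 4. In all, 14 of the 50 genes share over 10% of their exon bases with other genes and 20 share none. Among those described here by library, the share was 23.5% for PA2G4, 19.95% for NOP16, 18.2% for POLR1C and 11.4% for RRS1, besides NOP2, PPAN and LTV1. For NHP2, drawn by library with the H/ACA proteins, it was 27.4%. Where bases are shared, reads may have been divided.

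All 3 nucleolar regulators were called lower. PA2G4, also called EBP1, a growth-regulating protein that binds ribosomes, had 252, 242 and 265 CPM in the libraries labelled knockout, against 391, 373 and 376 CPM in those labelled WT (log2 fold change -0.59 ± 0.04, edgeR adjusted p = 5.08e-11). MYBBP1A, a nucleolar protein involved in processing of the precursor, had 120, 119 and 110 CPM in the libraries labelled knockout and 172, 174 and 174 CPM in those labelled WT (-0.58 ± 0.04, edgeR adjusted p = 1.78e-10). RRP8, a methyltransferase of 28S ribosomal RNA that also takes part in silencing of ribosomal DNA, had 17.9, 19.5 and 21.1 CPM in the libraries labelled knockout and 27.5, 25.6 and 26.8 CPM in those labelled WT (-0.44 ± 0.08, edgeR adjusted p = 3.27e-05).

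TCOF1, NOP16, UTP15, NPM1 and NHP2 lie on chromosome 5. All 5 were called lower, and their median log2 fold change was -0.82, though NHP2, at -0.42, fell by less than the median of the whole set. Chromosome 5 genes were lower as a whole in these libraries: 46.9% of the 781 tested were called lower, with a median of -0.20, and its part in the change of these 5 genes was not tested. The other 45 genes, on other chromosomes, had a median of -0.46, with 43 called lower and 0 higher. With chromosome 5 genes left out of scaling and testing, 43 of the 45 were again called lower.

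Other genes of the pathway were also mostly lower. Of 110 further genes in 5 lists, 84 were called lower and 1 higher, with a median log2 fold change of -0.31. Of all genes tested, 25.9% were called lower and 26.7% higher. These lists were not matched for level, and 32.8% of all genes tested at 16 to 64 CPM and 48.5% at 64 to 256 CPM were called lower. Of 9 other Pol I genes 7 were lower and 0 higher (median -0.32). Among the 7 were the Pol I subunit CD3EAP (-0.69 ± 0.07), which shares 45.1% of its exon bases with other genes, and TAF1C of SL1 (-0.52 ± 0.05). TAF1B of SL1 (0.02 ± 0.08, edgeR adjusted p = 0.886) and the subunit POLR1D (-0.03 ± 0.05, edgeR adjusted p = 0.694) were not called. Of 38 other small subunit factors 32 were lower and 0 higher (median -0.33), WDR36 (-0.74 ± 0.05), on chromosome 5, and PNO1 (-0.68 ± 0.08) most. Of 38 other large subunit factors 34 were lower and 0 higher (median -0.32), NOL9 (-0.67 ± 0.06), the kinase of precursor cleavage, and RRP15 (-0.65 ± 0.07) most. Of 10 snoRNP assembly factors 7 were lower, ZNHIT6 (-0.60 ± 0.06) and TGS1 (-0.40 ± 0.06) most. PIH1D1, of the R2TP chaperone complex, was the 1 gene called higher, with 53.4, 53.5 and 56.7 CPM in the libraries labelled knockout, against 45.6, 45.8 and 43.8 CPM in those labelled WT (0.28 ± 0.05).

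The RNA exosome and the 5′ exonuclease XRN2 trim precursors but also act on many other RNAs. They were called lower about as often as all genes tested. Of 15 genes 4 were called lower (26.7%, against 25.9% of all genes tested) and 0 higher (against 26.7%), with a median log2 fold change of -0.09. The list was not matched for level: 32.8% of all genes tested at 16 to 64 CPM were called lower, and 48.5% at 64 to 256 CPM. EXOSC2 (-0.69 ± 0.05) and the helicase MTREX (-0.58 ± 0.05), on chromosome 5, fell most. Cytosolic ribosomal proteins, the other component of the ribosome, were lower by less: of 79 genes 53 were called lower and 2 higher, with a median of -0.15. Many of these genes are highly expressed. Among all 707 genes tested above 256 CPM, 56.4% were called lower and 21.2% higher, with a median of -0.14, so the median of this list is near that of genes at high level. With scaling by expression level (cyclic loess) 20 were called lower and 7 higher. RPS28 (0.36 ± 0.06) and RPS9 (0.11 ± 0.04) were the genes called higher. RPS10 (-1.12 ± 0.23), which fell most, had only 27, 39 and 39 counts in the libraries labelled knockout, against 90, 62 and 79 in those labelled WT, with 39.4% of its exon bases shared with another gene, and many ribosomal protein genes have pseudogene copies. RPL36A (-0.81 ± 0.19) was next, with 34, 58 and 78 counts in the libraries labelled knockout and 96, 120 and 84 in those labelled WT. The summed level of the 50 biogenesis genes equalled 13.955%, 14.589% and 13.896% of the summed level of the ribosomal protein genes in the libraries labelled knockout, against 19.073%, 17.911% and 18.387% in those labelled WT. This share was lower in all 3 libraries labelled knockout, and the difference between the lists was not tested.

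**Figure D5:**
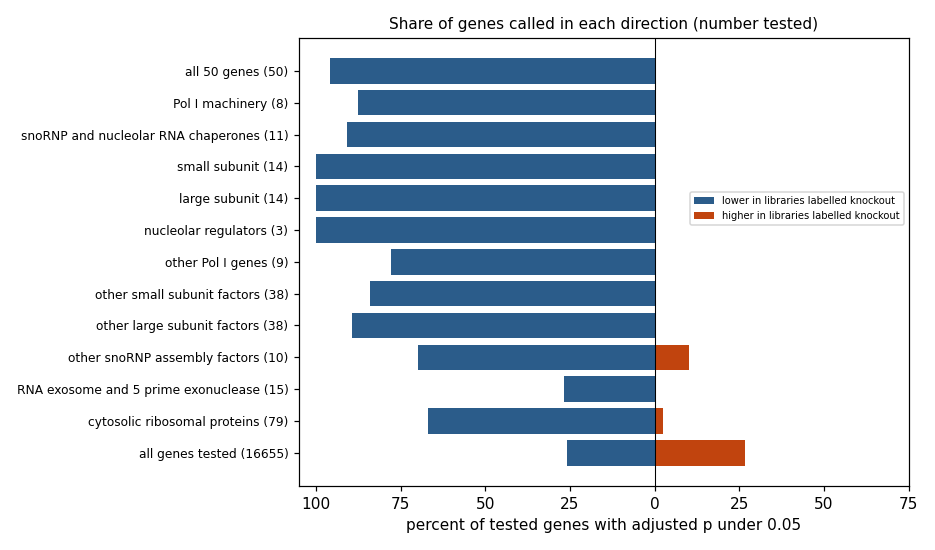
Share of tested genes with an adjusted p under 0.05 in each list, to the left of 0 for genes lower and to the right for genes higher in the libraries labelled knockout, with the number tested in brackets. The 50 genes reach 96% lower, cytosolic ribosomal proteins 67.1%, the exosome list 26.7% and all genes tested 25.9%. The lists are not matched for level: among all genes tested above 256 CPM, not drawn, 56.4% were called lower and 21.2% higher.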

How the data were processed

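Gene-level RNA-seq values were taken from 2 tables that the authors deposited. Per the labels' protocols, libraries were made with the NEBNext Ultra RNA kit; per the submitters' processing notes, the tools were fastp, STAR, HISAT2 and DESeq and the build GRCh38, with roles, versions, counting tool and strand setting not given in the sources used here. The main table holds raw counts per gene as the authors deposited them. The authors' second table holds normalised signal (counts divided by 1 factor per library), FPKM values, log2 fold changes and p-values of their own, per the file headers; the FPKM are quoted as levels per length, and the fold changes and p-values only as the authors' calls.

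Libraries were grouped by genotype label (3 and 3). The test was the two-sided quasi-likelihood test of edgeR 4.0.16 in R 4.3.3 on the counts (glmQLFTest after glmQLFit, no covariate, TMM factors, filterByExpr with minimum count 10 and minimum total 15), adjusted by Benjamini-Hochberg over 16655 genes, threshold 0.05. The step was tested on simulated data. SEs come from the quasi-likelihood F statistic; CPM are TMM-scaled. The biological coefficient of variation was 0.0498, and no replicate pair was as alike as 1 library deposited again (chi-square over degrees of freedom 2.40 to 6.20). The members, lists and tests were chosen with earlier results of these data known. Named in full were the 3 largest called changes in each role group, every member called higher or not called, and POLR1A, UBTF, RRN3, NCL, NPM1 and FBL; from other lists, up to 2 lowest and 2 highest calls. PPAN, POLR1C and other members outside this rule, and TAF1B and POLR1D of the other lists, were named after their values were seen. Alternatives were other scalings (DESeq2 1.42.0 size factors, upper quartile, cyclic loess with limma 3.58.1), filters (none, or 50 counts in 3 libraries), tests (DESeq2, limma-voom), a replicate block, leaving out each library, a threshold of 0.01, protein-coding genes alone and no chromosome 5 genes.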

Additional observations from a re-analysis of the deposited data

How the results depend on the processing

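The count of ribosome biogenesis genes called lower stayed between 45 and 48 of 50 in every alternative that tested all 50 (47 of 49 with the stricter filter, 43 of 45 without chromosome 5), and 0 were called higher in any. Leaving out 1 library gave 45 to 48 lower. Their median log2 fold change, -0.48, was -0.4225 with upper-quartile factors, -0.4302 with cyclic loess and -0.4418 with the stricter filter, and ran from -0.5183 to -0.4613 with 1 library left out. No gene of the 50 changed direction past the threshold. Same-numbered libraries did not deviate together (correlations 0.0116, 0.0205 and -0.0240), so no pairing by number was seen. A pairing with small shared effects would look the same. With the replicate number as a block 47 were called lower, NOP2 losing its call. NOP2 also lost it with upper-quartile factors, no filter, DESeq2, limma-voom, the 0.01 threshold and 5 of 6 libraries left out (adjusted p 0.0568 to 0.16 among the alternatives at the 0.05 threshold that lost it). PPAN lost its call without knockout replicate 2 (0.079), knockout replicate 3 (0.0528) or WT replicate 1 (0.0862), and POLR1C with upper-quartile factors (0.0704) besides the libraries named above; both lost it at the 0.01 threshold.

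Ribosomal proteins called lower, 53 of 79, were 38 with upper-quartile factors and ran from 41 (without knockout replicate 2) to 62 (without knockout replicate 3) with 1 library left out; other large subunit factors called lower, 34 of 38, were 29 with cyclic loess. Higher calls in the other lists also moved. With upper-quartile factors higher calls were 1 among other small subunit factors, 3 among other large subunit factors and 1 in the exosome list. Cyclic loess gave 1, 2 and 1 for these, 2 for snoRNP assembly factors and 7 for ribosomal proteins, of which it called 20 lower. The stricter filter gave 1 each for small and large subunit factors. Ribosomal proteins had 1 higher call with no filter and at the 0.01 threshold. With 1 library left out, higher calls ran from 0 to 1 for small subunit factors and from 1 to 2 for ribosomal proteins. The median over all genes tested moved by less than 0.1 under every scaling. The causes were not tested. The depth limits chiefly NOP2, with at most 30 counts per library.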

Other observations

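Ribosome biogenesis genes often carried small nucleolar RNA genes, whose products work in the same pathway. An annotated snoRNA gene lay inside the bounds of 10 of the 50 genes on the same strand (20%), against 1.72% of the 13429 protein-coding genes tested. TAF1D held 8, GNL3 6, NOP56 5, NOP58 4, NCL and WDR43 3 each, DKC1, TSR1 and PPAN 2 each, and POLR1C 1. All 10 hosts were called lower, by 0.20 (POLR1C) to 0.61 (DKC1) on the log2 scale. This is near the share of the whole set, where 48 of the 50 genes were called lower, against 25.9% of all genes tested. The counts are of whole genes, and the snoRNAs themselves were not analysed here.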
